A study of Homo sapiens with 22 samples.

Results

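The genes described here encode the proteins of the cytosolic ribosome. They were taken by gene symbol, as every row named RPL or RPS followed by a number (with the endings A, L, AL or X) or named RPLP0, RPLP1, RPLP2 or RPSA. The rule gave 82 of 34679 table rows, 50 of the large subunit and 32 of the small subunit, and left out 1132 rows of their pseudogenes. It used no measured value. After the filter on low counts, 79 of the 82 were tested among 16601 genes. The 3 that did not pass were RPL10L, RPL39L and RPL3L, tissue-restricted copies of RPL10, RPL39 and RPL3. RPL10L had 2 counts over all 22 libraries, RPL3L 79 and RPL39L 89.

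Polyadenylated RNA was sequenced from LUHMES cells, an immortalised human mesencephalic line that can be differentiated into dopamine-like neurons. Cells fell into 6 groups: wild-type cells with 6-hydroxydopamine (6-OHDA) and wild-type cells untreated (4 libraries each), alpha-synuclein overexpressing cells with 6-OHDA plus quercetin (3), with 6-OHDA plus rutin (3), with 6-OHDA and no compound (4), and alpha-synuclein cells untreated (4). 6-OHDA is a dopamine analogue taken up by dopamine neurons that gives rise to oxidative stress. Doses, exposure times, the promoter behind the alpha-synuclein transgene and the number of clones are not stated in the labels. Quercetin is a plant flavonol, and rutin is the same flavonol carrying a sugar chain, rutinose. Because RNA came from whole cultures, fewer cells of a type and less RNA per cell cannot be told apart.

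A ribosome carries a single copy of most of these proteins, joined to ribosomal RNA in the nucleolus, so cells make the members in matched amounts. Their mRNAs begin with a run of pyrimidines (the 5′ terminal oligopyrimidine, or TOP, motif), through which the kinase mTORC1 and the RNA-binding protein LARP1 set their translation and stability. Some members also act off the ribosome. RPL5 and RPL11, bound to 5S ribosomal RNA, hold back MDM2 when ribosome assembly fails and so raise p53, and RPS27L is a p53 target gene.

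The first bases of the transcripts are shown because they are the part of these genes that the TOP pathway reads. RefSeq start windows on GRCh38.p14 were matched for 65 members, and each line gives 30 bases on the gene's strand, opening 10 bases before the annotated start. Capitals mark the run of at least 8 C or T that overlaps the 10 bases on either side of the start. Each gene is represented by its first-listed window, and its other annotated starts are not shown. In these windows the first 7 genes hold such a run, and the last 4 hold none.
RPLP0 (chr12:120201092-120201121, minus strand): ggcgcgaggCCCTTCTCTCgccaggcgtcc
RPLP1 (chr15:69452808-69452837, plus strand): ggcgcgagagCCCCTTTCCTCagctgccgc
RPS12 (chr6:132814559-132814588, plus strand): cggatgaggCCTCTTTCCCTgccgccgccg
RPL39 (chrX:119791611-119791640, minus strand): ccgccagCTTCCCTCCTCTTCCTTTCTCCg
RPL13A (chr19:49487598-49487627, plus strand): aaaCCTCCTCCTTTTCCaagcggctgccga
RPS25 (chr11:119018324-119018353, minus strand): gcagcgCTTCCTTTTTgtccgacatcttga
RPS27 (chr1:153990752-153990781, plus strand): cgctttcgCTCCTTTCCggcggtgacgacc
RPS27L (chr15:63157458-63157487, minus strand): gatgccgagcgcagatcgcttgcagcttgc
RPL12 (chr9:127451387-127451416, minus strand): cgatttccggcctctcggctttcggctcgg
RPL3 (chr22:39319604-39319633, minus strand): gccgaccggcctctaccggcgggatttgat
RPL11 (chr1:23691769-23691798, plus strand): cctggcccataaggccctcggccggaagct

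Of the 65 windows, 52 (80.0%) held the run, against 15.4% of 27305 gene starts in the same RefSeq table. With any listed window of a gene counted, 55 of the 65 members held it, against 18.8% of all genes. A gene without the run in its first window may thus hold it at another annotated start. RPS27 and its copy RPS27L differ in their first-listed windows, as the lines above show. Over 300 bases around the start, on both strands, the ETS-type core CCGGAAG was found in 33.8% of members against 10.7% of all starts, and the YY1-type core AAGATGGC in 9.23% against 3.03%. The ATF4-type element TGATGCAA stood in 1.54% of members and 0.92% of all starts, and the antioxidant-type element TGACNNNGC in 9.23% and 13.6%. These matches describe letters in the window and are not binding sites.

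Libraries held 1866396 to 20667106 estimated counts, so that 3 counts, taken as the limit of detection, equalled 0.168 to 1.49 CPM (counts scaled to a common library total). Levels are given as CPM on library sizes scaled by TMM, a method that sets the typical gene equal between libraries. Neuronal markers all had counts in every library, though ELAVL4 fell to the limit of 3 counts at its lowest. Their summed level over 12 genes was 5143 to 7414 CPM in the 14 libraries with 6-OHDA and 10162 to 13184 CPM in the 8 untreated ones. Glial markers summed to 48.6 to 80.6 CPM with 6-OHDA and 84.5 to 107 CPM untreated, and mesenchymal, endothelial and immune markers to 21.3 to 29.8 and 15.5 to 26.4 CPM, with AIF1 at 2 counts or fewer in every library. The fourth alpha-synuclein library with 6-OHDA stood apart: its TMM factor was 0.948, against 1.05 to 1.12 in the other 13 libraries with 6-OHDA, and its neuronal marker sum was 7414 CPM, against 5143 to 6032 CPM. The counts for 6-OHDA in alpha-synuclein cells are given below with and without it. Without it 29 members were lower and 1 higher in alpha-synuclein than in wild-type cells under 6-OHDA. Lane followed the groups: wild-type cells with 6-OHDA and both untreated groups ran on lane 1 (12 libraries) and the other 3 groups on lane 2 (10 libraries). Lane and group therefore cannot be told apart wherever a comparison crosses the lanes.

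The members took a larger share of all counts in every library with 6-OHDA than in untreated libraries of the same genotype. In wild-type cells the share was 2.96% ± 0.110 with 6-OHDA and 1.95% ± 0.159 untreated (SD, n = 4 each). In alpha-synuclein cells it was 2.80% ± 0.270 with quercetin, 3.00% ± 0.189 with rutin (n = 3 each), 2.37% ± 0.200 with 6-OHDA and no compound, and 1.91% ± 0.113 untreated (n = 4 each). The lowest wild-type library with 6-OHDA stood at 2.85% and the highest untreated one at 2.18%. In alpha-synuclein cells the gap was small, with a lowest value of 2.11% under 6-OHDA and a highest untreated value of 2.07%. Large-subunit genes held 2.43 to 2.56 times the counts of small-subunit genes in every library. The balance between the summed counts of the subunits thus moved little while the share shifted. Gene by gene, the median log2 change with 6-OHDA in wild-type cells was 0.38 for small-subunit and 0.19 for large-subunit genes. In alpha-synuclein cells these medians were 0.18 and 0.07. On library sizes scaled by TMM, the members summed to 26818 to 29059 CPM with 6-OHDA and 19998 to 25594 CPM untreated in wild-type cells. In alpha-synuclein cells they summed to 19112 to 25398 CPM with 6-OHDA and no compound and 20912 to 23925 CPM untreated. On that scale the 2 alpha-synuclein groups overlapped.

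**Figure D1:**
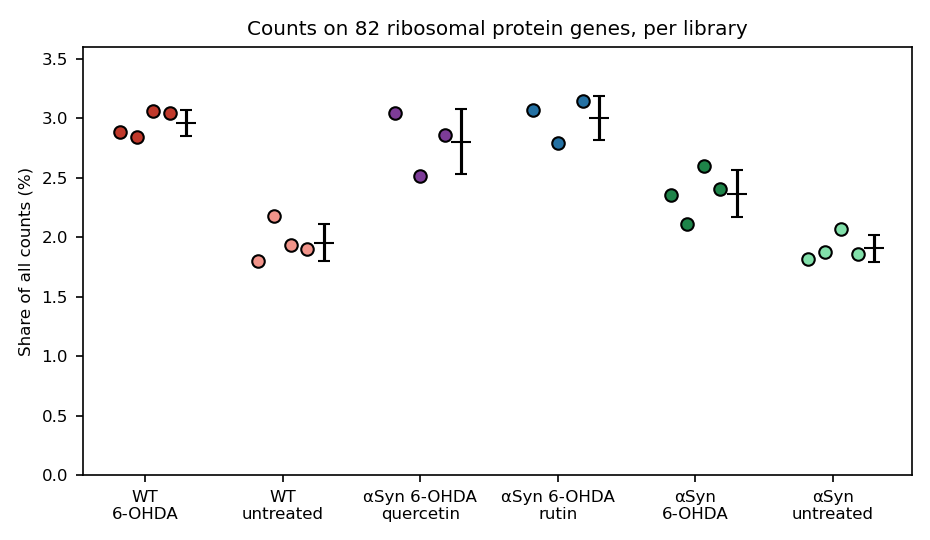
Share of all counts (percent, vertical axis) on the 82 ribosomal protein genes in each of the 22 libraries, by group; points are libraries and bars the mean ± SD. Untreated libraries lie at or below 2.18%, and libraries with 6-OHDA lie between 2.11% and 3.15%.

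In wild-type cells, 6-OHDA was accompanied by higher levels of 37 of the 79 members and lower levels of 4. Among the largest gains were RPL12 and RPLP1 of the stalk that recruits elongation factors, RPS12, RPL39 of the peptide exit tunnel and the p53 target RPS27L. RPS25, RPS26, RPL14 and RPS29 fell. The calls came from edgeR's quasi-likelihood test across all genes at a Benjamini-Hochberg adjusted p under 0.05. By that rule 52% of all genes were called, 25.8% higher and 26.2% lower, while 46.8% of the members were higher and 5.06% lower. The median log2 change was 0.32 over the members and 0.07 over all genes. Small-subunit genes gave 18 higher and 3 lower of 32, and large-subunit genes 19 higher and 1 lower of 47. The groups did not overlap for 32 members that were above and 4 that were below, or 40.5% and 5.06% (20.7% and 24.3% of all genes).

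In alpha-synuclein cells the same comparison gave 25 members higher and 3 lower. Again RPS27L, RPS12, RPL39 and RPL12 led, and RPL36, RPS2 and RPS15 fell. Of all genes 47.1% were called, 22.9% higher and 24.2% lower, against 31.6% and 3.8% of the members. The median log2 change was 0.11 over the members and 0.05 over all genes. The groups did not overlap for 19 members above and 3 below, or 24.1% and 3.8% (18.8% and 20.3% of all genes). This comparison crosses the lanes, and leaving out the 2 untreated libraries that carry 4 barcode numbers each left 18 members higher and 0 lower. The falls were then -0.44 for RPL36, -0.23 for RPS2 and -0.26 for RPS15 (adjusted p = 0.057, 0.20 and 0.13). Single treated libraries also moved the counts. Without the fourth library with 6-OHDA they were 22 higher and 9 lower with a median of 0.04, and without the second 33 higher and 1 lower with a median of 0.19.

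The 2 comparisons share no library. Of the members, 19 were higher in both genotypes, which is 51.4% of those higher in wild-type cells and 76% of those higher in alpha-synuclein cells. Over all genes the shared calls were 54.1% and 60.9% of the 2 lists. Among the 19 were RPL10, RPL10A, RPL12, RPL17, RPL24, RPL39, RPLP0, RPLP1, RPS12, RPS13, RPS14, RPS16, RPS27L, RPS3A, RPS9 and RPSA. Of the 41 calls in wild-type cells 37 held without each library in turn, and of the 28 in alpha-synuclein cells 20 did. Those lost included RPS13 and RPS16 in wild-type cells, and RPL10 and RPS14 in alpha-synuclein cells. RPS2 and RPS15 were higher in wild-type and lower in alpha-synuclein cells, and no member was lower in both. After adjustment for coding GC, described below, neither gene was called in either genotype: RPS2 was at 0.20 in wild-type and -0.20 in alpha-synuclein cells (adjusted p = 0.13 and 0.14), and RPS15 at 0.11 and -0.14 (adjusted p = 0.42 and 0.31). The changes had the same sign in 47 of the 79.

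These counts depend on how libraries are scaled. TMM factors were 0.948 in the library that stood apart, 1.05 to 1.12 in the other 13 with 6-OHDA and 0.843 to 0.903 untreated. With total counts as library size, an alternative chosen after seeing the data, the median change of all genes moved to 0.35 in wild-type and 0.33 in alpha-synuclein cells. Members then numbered 59 higher and 1 lower in wild-type cells, and 53 higher and 0 lower in alpha-synuclein cells. Of all 16601 genes, 9414 were called in wild-type cells under this scaling. The matching number for alpha-synuclein cells is not given here.

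**Figure D2:**
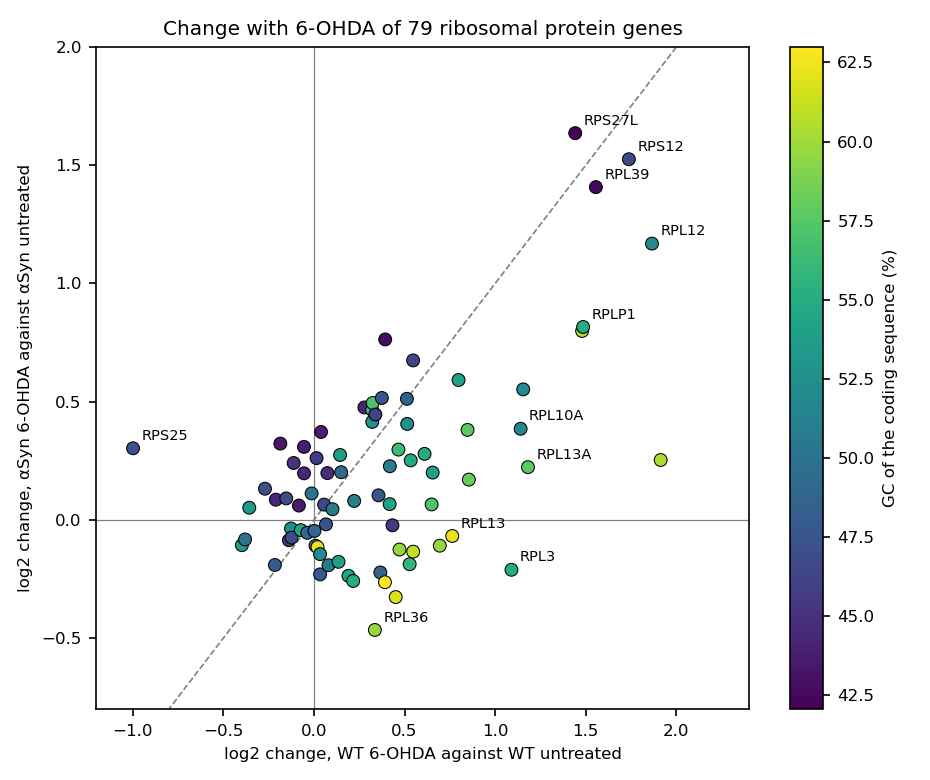
Log2 change with 6-OHDA of the 79 tested genes, in wild-type cells (WT, horizontal axis) and in alpha-synuclein cells (αSyn, vertical axis), each against untreated cells of that genotype; colour gives the GC content of the coding sequence and the dashed line equal change. RPS27L, RPS12, RPL39 and RPL12 lie at the upper right, RPL3 at 1.09 and -0.21, and RPS25 at -0.998 and 0.30.

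Among the paralog pairs, RPS27L (ENSG00000185088.14, chr15:63125872-63158021 in GENCODE 29 on GRCh38) rose in both genotypes and RPS27 was called in neither. Their proteins are near-identical parts of the small subunit, and RPS27L has no pseudogene row in the table. RPS27L stood at 54.5, 49.9, 52.1 and 62.7 CPM in wild-type cells with 6-OHDA, against 20.6, 18.8, 18.1 and 22.4 CPM in untreated wild-type cells. It stood at 65.5, 67.5, 66.3 and 63.9 CPM in alpha-synuclein cells with 6-OHDA, against 17.3, 24.4, 20.8 and 21.4 CPM in untreated alpha-synuclein cells. Every treated library was above every untreated one, with log2 changes of 1.44 (SE 0.12, adjusted p = 2.6e-09) in wild-type cells and 1.64 (SE 0.11, adjusted p = 2.9e-10) in alpha-synuclein cells. RPS27 averaged 145 ± 19.1 CPM with 6-OHDA and 146 ± 12.6 CPM untreated in wild-type cells, and 163 ± 38.5 and 152 ± 6.54 CPM in alpha-synuclein cells (SD, n = 4 each). Its log2 changes were -0.01 (95% interval -0.34 to 0.32) and 0.11 (-0.21 to 0.43), with adjusted p of 0.96 and 0.58.

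RPL36AL, a retrotransposed copy of the X-linked RPL36A, gave 39.7, 43.1, 55.2 and 74.0 CPM in alpha-synuclein cells with 6-OHDA, against 32.6, 40.8, 41.0 and 35.9 CPM untreated. The groups overlapped, and the log2 change was 0.52 (SE 0.15, adjusted p = 0.0067). Without the fourth treated library it was 0.29 and was not called. In wild-type cells RPL36AL was not called in the fit of all libraries, but it was called as higher in several alternatives. Its log2 change there was 0.37 with DESeq2's Wald test (adjusted p = 0.044) and 0.43 in a fit of only the groups compared (adjusted p = 0.010). It was 0.44 after GC adjustment (adjusted p = 0.024) and 0.66 with total counts as library size (adjusted p = 0.00028). The rise was thus not shown to be limited to alpha-synuclein cells. RPL36A itself was not called, at -0.27 in wild-type and 0.13 in alpha-synuclein cells. RPL39 (chrX:119786504-119791643), which lines the exit tunnel, had 14.5, 9.98, 12.6 and 11.4 CPM in wild-type cells with 6-OHDA, against 4.57, 4.20, 3.36 and 4.54 CPM untreated. In alpha-synuclein cells it had 12.3, 14.0, 13.2 and 7.32 CPM with 6-OHDA, against 5.14, 4.41, 3.74 and 3.94 CPM untreated. The groups did not overlap in either genotype, and the log2 changes were 1.56 (SE 0.21, adjusted p = 1.8e-06) and 1.41 (SE 0.19, adjusted p = 3.5e-06).

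The lateral stalk consists of RPLP0 with pairs of RPLP1 and RPLP2, anchored beside RPL12, and it recruits the translation factors. RPLP0 averaged 570.3 ± 17.5 CPM with 6-OHDA and 328 ± 22.9 CPM untreated in wild-type cells, and 430.1 ± 61.9 and 286 ± 47.5 CPM in alpha-synuclein cells (SD, n = 4 each). RPLP1 (chr15:69452784-69456194) had 113, 121, 122.8 and 139.8 CPM in wild-type cells with 6-OHDA, against 43.0, 44.1, 44.8 and 44.4 CPM untreated. It had 94.4, 87.6, 111 and 78.8 CPM in alpha-synuclein cells with 6-OHDA, against 59.9, 51.04, 51.6 and 48.6 CPM untreated. RPLP0 and RPLP1 thus separated treated from untreated libraries in both genotypes. Their log2 changes were 0.80 and 1.49 in wild-type cells (adjusted p = 8.3e-06 and 2.6e-10) and 0.59 and 0.82 in alpha-synuclein cells (adjusted p = 0.00032 and 1.1e-06). RPLP2 was not called, with 28.9 ± 2.92 CPM with 6-OHDA against 22.9 ± 6.86 CPM untreated in wild-type cells, and 36.7 ± 11.9 against 27.1 ± 6.21 CPM in alpha-synuclein cells. In alpha-synuclein cells RPLP2 was called without the second untreated library (0.56, adjusted p = 0.048) or the second with 6-OHDA (0.62, adjusted p = 0.016). With total counts as library size it was called in wild-type and alpha-synuclein cells (0.60 and 0.74, adjusted p = 0.020 and 0.0033). RPL12 (chr9:127447674-127451405) had 126, 123.7, 130.2 and 109.9 CPM in wild-type cells with 6-OHDA, against 34.8, 33.02, 33.8 and 33.1 CPM untreated, a log2 change of 1.87 (SE 0.12, adjusted p = 7.3e-11). In alpha-synuclein cells it had 96.2, 73.6, 89.3 and 56.9 CPM with 6-OHDA, against 37.01, 32.6, 37.1 and 33.2 CPM untreated, a log2 change of 1.17 (SE 0.12, adjusted p = 5.2e-08). The table also holds 50 pseudogene rows of RPL12, and reads shared with them may be divided between rows.

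**Figure D3:**
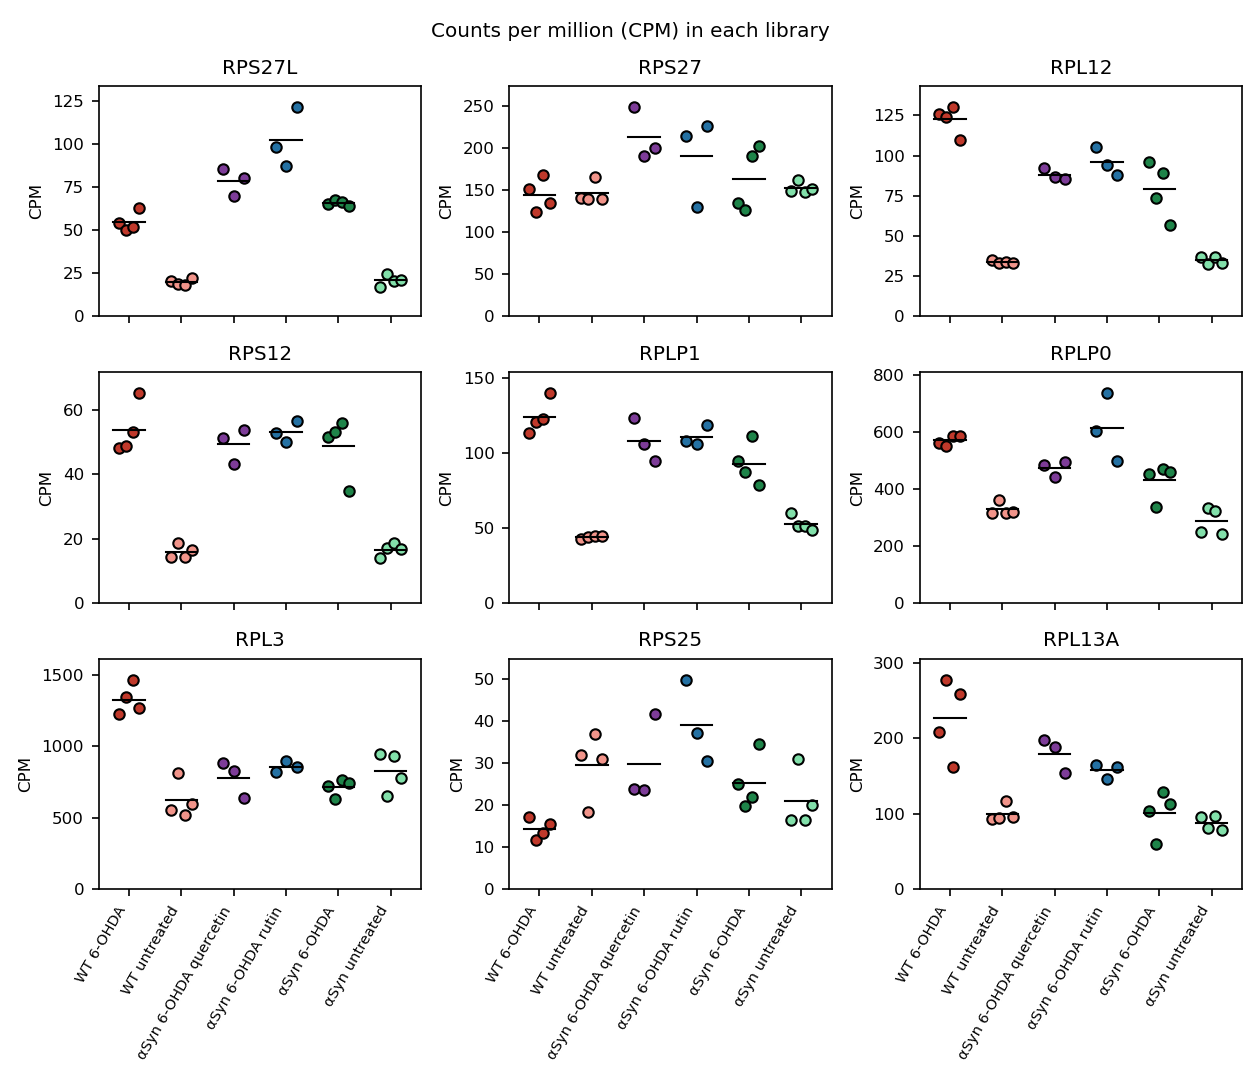
Level of 9 ribosomal protein genes in each library (CPM, vertical axes from 0, a scale per gene), by group; points are libraries and lines group means. RPS27L and RPLP1 separate libraries with 6-OHDA from untreated ones in both genotypes and RPS27 does not. RPL13A in alpha-synuclein cells with 6-OHDA and no compound lies below every wild-type library with 6-OHDA.

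RPS12, a small-subunit protein studied in Drosophila for its part in cell competition, reached 48.2, 48.7, 53.01 and 65.2 CPM in wild-type cells with 6-OHDA, against 14.2, 18.6, 14.4 and 16.4 CPM untreated. In alpha-synuclein cells it reached 51.5, 53.1, 55.9 and 34.7 CPM with 6-OHDA, against 13.9, 17.2, 18.5 and 16.7 CPM untreated. The log2 changes were 1.74 (SE 0.15, adjusted p = 3.9e-09) and 1.53 (SE 0.14, adjusted p = 1.7e-08), and no treated library overlapped an untreated one. RPL10A, of the stalk that releases spent tRNA, was higher by 1.14 in wild-type and 0.39 in alpha-synuclein cells. RPL10, which joins the large subunit late in its maturation, was higher by 0.53 and 0.25 (adjusted p = 8.9e-05 and 0.037), and RPSA, also known as the laminin receptor precursor, by 0.51 and 0.41 (adjusted p = 0.0017 and 0.0086). The RPL10 call in alpha-synuclein cells was lost without any 1 of 4 libraries. Without the 2 libraries with 4 barcode numbers RPL10 and RPSA were not called there (0.31 and 0.40, adjusted p = 0.055 and 0.057). RPS3, which sits at the mRNA entry and takes part in DNA repair, and the X-linked RPS4X rose in wild-type cells, by 0.42 and 0.37 (adjusted p = 0.00057 and 0.023). The RPS4X call was lost without any 1 of 3 libraries, and in alpha-synuclein cells neither gene was called.

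RPL5 and RPL11, which with 5S ribosomal RNA bind MDM2, were not called in either genotype, and nor were RPL23 and RPL26, which also bind MDM2 or p53 mRNA. RPL5 averaged 446 ± 18.9 CPM with 6-OHDA and 463 ± 48.9 CPM untreated in wild-type cells, and 512 ± 68.7 and 447 ± 49.7 CPM in alpha-synuclein cells. RPL11 averaged 344 ± 54.0 and 320.4 ± 33.3 CPM in wild-type cells, and 353 ± 46.9 and 343 ± 16.2 CPM in alpha-synuclein cells. Their log2 changes lay between -0.05 and 0.20, with adjusted p of 0.089 or higher. In alpha-synuclein cells RPL5 was called without the first or second library with 6-OHDA (0.26 and 0.27, adjusted p = 0.030 and 0.027). Without the second, RPL23 and RPL26 were called there (0.31 and 0.36, adjusted p = 0.012 and 0.0079). With total counts as library size RPL5, RPL11, RPL23 and RPL26 were called in alpha-synuclein cells (0.49, 0.33, 0.49 and 0.52). RPL5, RPL11 and RPL23 were then also called in wild-type cells (0.23, 0.38 and 0.43). RPS6, the substrate of S6 kinase, and RPL41, the shortest member, were at 0.07 and 0.03 in wild-type and -0.02 and -0.14 in alpha-synuclein cells, and were not called. RPS27A, which is made as a fusion to ubiquitin, was higher in alpha-synuclein cells (0.31, adjusted p = 0.025) and not called in wild-type cells (-0.05). That call was lost without any 1 of 3 libraries.

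RPS25 (chr11:119015712-119018691), needed for translation from some viral internal ribosome entry sites, had 17.1, 11.8, 13.5 and 15.4 CPM in wild-type cells with 6-OHDA, against 31.8, 18.4, 36.8 and 30.9 CPM untreated. It had 24.9, 19.7, 21.9 and 34.6 CPM in alpha-synuclein cells with 6-OHDA, against 16.6, 30.9, 16.4 and 20.1 CPM untreated. In wild-type cells every treated library was below every untreated one, a log2 change of -0.998 (SE 0.27, adjusted p = 0.0037). In alpha-synuclein cells the groups overlapped (0.30, adjusted p = 0.32). RPS26, at the mRNA exit, RPL14 and RPS29 fell by 0.40, 0.38 and 0.36 on the log2 scale in wild-type cells (adjusted p = 0.0062, 0.0013 and 0.02). With total counts as library size all 3 were closer to 0, at -0.12, -0.10 and -0.08, and not called, whereas RPS25 was still called. The RPS29 call was also lost without the second untreated wild-type library (-0.32, adjusted p = 0.051).

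Between untreated alpha-synuclein and wild-type cells no difference in these genes was called. No member passed edgeR's threshold, while 0.651% of all genes did, and the DESeq2 Wald test called 0 members. An unadjusted p under 0.05 was found for 6 of the 79 members and 1534 of the 16601 genes. The median half-width of the 95% intervals was 0.24 on the log2 scale, which limits the differences detectable here. The largest difference was that of RPS25, at -0.49 (adjusted p = 0.57). RPL3 was called as higher in alpha-synuclein cells without the second untreated wild-type library (0.57, adjusted p = 0.025). It was also called without the second untreated alpha-synuclein library (0.51, adjusted p = 0.049). For 2 members the alpha-synuclein libraries were all above and for 3 all below, or 2.53% and 3.8% (3.08% and 2.26% of all genes).

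Under 6-OHDA the genotypes differed: 29 members were lower in alpha-synuclein than in wild-type cells and 2 were higher. Lower were RPL13A, RPL3, RPL13 and RPL18 among others, and higher were RPS25 and RPL7. Of all genes 27.3% were called, 14.4% higher and 12.9% lower, against 2.53% and 36.7% of the members. The median log2 difference was -0.11 over the members and -0.01 over all genes. The groups did not overlap for 24 members below and 3 above, or 30.4% and 3.8% (11.3% and 12.8% of all genes). Of the 31 calls, 21 held without each of the 8 libraries in turn. The split depended on single libraries: without the second alpha-synuclein library with 6-OHDA it was 22 lower and 10 higher with a median of -0.02, and without the fourth wild-type library with 6-OHDA 24 lower and 7 higher with a median of -0.05. Without any 1 of the other 6 libraries, higher members numbered 1 to 5. Progenitor and cell cycle markers, 8 genes, summed to 174 to 245 CPM in alpha-synuclein and 317 to 359.6 CPM in wild-type cells with 6-OHDA, and their part in the result was not tested.

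The interaction of genotype and 6-OHDA, which asks whether the change itself differed between genotypes, called 19 members negative and 2 positive, where 21.6% of all genes were called, 11.2% positive and 10.5% negative. Positive calls numbered 8 without the second alpha-synuclein library with 6-OHDA, where 16 were negative and the median was -0.01, and 2 to 6 without any other library. In the fit of all libraries, those 19 changed less or downward in alpha-synuclein cells compared with wild-type cells. RPL3 (chr22:39312882-39320389), at the peptidyl transferase centre, showed the largest called negative difference. It stood at 723, 629.9, 766 and 740.1 CPM in alpha-synuclein cells with 6-OHDA, against 943, 655, 933 and 780.0 CPM untreated. In wild-type cells it stood at 1226, 1343, 1464 and 1265 CPM with 6-OHDA, against 553, 814, 523 and 599 CPM untreated. The log2 change was thus -0.21 (adjusted p = 0.19) in alpha-synuclein and 1.09 (adjusted p = 4.6e-07) in wild-type cells, and the interaction was -1.30 (SE 0.18, adjusted p = 0.00024).

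RPL13A, the large-subunit protein of the GAIT complex, had 103.2, 60.7, 129 and 112 CPM in alpha-synuclein cells with 6-OHDA, against 95.4, 80.7, 96.7 and 78.5 CPM untreated. Wild-type cells with 6-OHDA had 208, 277, 161 and 259 CPM, against 92.8, 94.1, 117 and 95.5 CPM untreated. Its interaction was -0.96 (SE 0.24, adjusted p = 0.0066). RPL13 and RPL18 followed, with interactions of -0.83 and -0.80 (adjusted p = 0.00089 and 0.0019). RPL13 averaged 928 ± 95.7 CPM in alpha-synuclein cells with 6-OHDA and 1682 ± 16.9 CPM in wild-type cells with 6-OHDA, against 973 ± 95.3 and 991 ± 191 CPM in the untreated cells of each genotype. RPS2 and RPS15, near the mRNA channel, and RPL36 were below their untreated level in alpha-synuclein cells. RPS2 averaged 435 ± 34.2 CPM with 6-OHDA and 546 ± 64.5 CPM untreated there, and 694 ± 41.9 and 508 ± 99.7 CPM in wild-type cells. RPS15 averaged 255 ± 36.9 and 307 ± 13.8 CPM in alpha-synuclein cells, and 398 ± 27.3 and 303 ± 24.9 CPM in wild-type cells. RPL36 averaged 79.3 ± 12.3 and 111 ± 12.5 CPM in alpha-synuclein cells, and 127 ± 6.54 and 100.3 ± 16.3 CPM in wild-type cells. The falls of RPS2, RPS15 and RPL36 in alpha-synuclein cells were -0.33, -0.26 and -0.47 (adjusted p = 0.025, 0.042 and 0.01), and none was called with total counts as library size. The call of RPS2 was also lost without any 1 of 3 libraries and that of RPS15 without any 1 of 5.

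On the positive side, the interaction of RPS25 was 1.30 (SE 0.36, adjusted p = 0.013) and that of RPL7 0.51 (SE 0.14, adjusted p = 0.012). Without the 2 libraries with 4 barcode numbers the interaction of RPS25 was 1.11 and not called (adjusted p = 0.081). The higher level of RPS25 in alpha-synuclein than in wild-type cells under 6-OHDA (0.82, adjusted p = 0.029) was not called without the second wild-type library (adjusted p = 0.063) or the fourth alpha-synuclein library (adjusted p = 0.14) with 6-OHDA. RPL7 averaged 232 ± 26.8 CPM in alpha-synuclein cells with 6-OHDA and 186 ± 17.2 CPM untreated, and 178 ± 9.20 and 204 ± 28.6 CPM in wild-type cells. RPL7 has 61 pseudogene rows, so its level is uncertain. These comparisons cross the lanes. Mitochondrially encoded mRNAs moved between the same groups: all 13 were higher in alpha-synuclein than in wild-type cells under 6-OHDA, with a median log2 difference of 1.12, and their part in the result was not tested.

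Base composition moved with the genotype difference. The coding sequences of the 79 members, read from GENCODE 29, had a median GC content of 51.1%. Of the 39 members above it, 26 were lower in alpha-synuclein than in wild-type cells under 6-OHDA and 0 were higher, and of the 40 at or below it 3 were lower and 2 higher. In the interaction the same split gave 18 negative of 39, and 1 negative and 2 positive of 40. Spearman's rho between coding GC and the log2 difference was -0.66 over the 79 members and -0.56 over 14626 other coding genes, and for the interaction -0.69 and -0.57. For 6-OHDA it was 0.42 and 0.23 in wild-type cells and -0.30 and -0.20 in alpha-synuclein cells. The points share the same libraries, and these values are descriptions. Each library's counts were next adjusted for coding GC, an alternative chosen after seeing the data. With it 25 members were lower and 0 higher in alpha-synuclein cells under 6-OHDA, 22 of them among the 31 calls. Of all genes 12.1% were called in that comparison after adjustment, 1106 higher and 905 lower. The interaction then called 9 members, 8 of them among the 21, and 1048 genes in all instead of 3594. RPL3, RPL12, RPLP1, RPL10A, RPS4X and RPS25 kept their interaction call under this adjustment, and RPL13A, RPL13, RPL18, RPL36, RPS2, RPS15 and RPL7 did not. The interaction call of RPS4X was lost without any 1 of 6 libraries (adjusted p = 0.053 to 0.075) and without the 2 libraries with 4 barcode numbers (adjusted p = 0.073). For 6-OHDA itself the adjusted counts were 36 higher and 4 lower in wild-type cells, with 38 of the 41 calls kept. In alpha-synuclein cells they were 22 higher and 3 lower, with 22 of the 28 kept. Over all 16601 genes the adjusted counts were 3683 higher and 4922 lower in wild-type cells, and 3302 and 4489 in alpha-synuclein cells. The median log2 change of the members became 0.20 in wild-type and 0.05 in alpha-synuclein cells, where it was 0.32 and 0.11 unadjusted, and that of all genes became -0.01 and -0.02. In alpha-synuclein cells the members called lower numbered 3 above the median GC and 0 at or below it as tested, and 1 and 2 after adjustment.

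**Figure D4:**
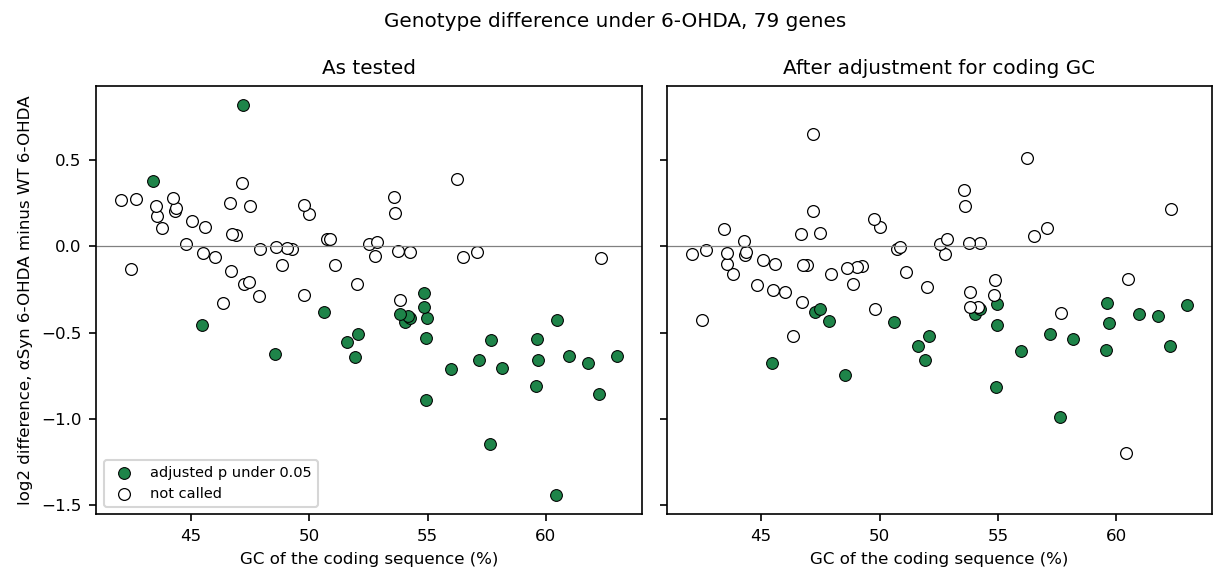
Log2 difference between alpha-synuclein and wild-type cells under 6-OHDA (vertical axis) against coding GC content (percent, horizontal axis) of the 79 genes, as tested and after adjustment for GC; filled points passed an adjusted p of 0.05. As tested, 26 of 39 genes above the median GC were lower, and after adjustment 19 of them.

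Members were also counted by the start of the transcript, read from the first-listed window alone. Among the 64 tested members with a start window, 24 of the 52 with a pyrimidine run were higher with 6-OHDA in wild-type cells and 3 lower, and 6 of the 12 without a run were higher and 1 lower. In alpha-synuclein cells the counts were 18 higher and 1 lower of 52, and 3 higher and 1 lower of 12. The median log2 changes were 0.32 with and 0.35 without the run in wild-type cells, and 0.15 and 0.00 in alpha-synuclein cells. RPL12 and RPS27L, whose windows above hold no run, were among the members that rose in both genotypes.

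Pseudogene rows of the members were tested where they passed the filter, which 1031 of the 1132 did not. With 6-OHDA 32 were higher, 3 lower and 66 not called in wild-type cells, and 36, 0 and 65 in alpha-synuclein cells. These are 31.7% higher and 2.97% lower in wild-type cells (25.8% and 26.2% of all genes), and 35.6% and 0% in alpha-synuclein cells (22.9% and 24.2%). Their median log2 change was 0.66 and 0.65. Between genotypes under 6-OHDA 3 were higher and 4 lower. Rows that pass a filter through their high group are favoured in such counts, and the reads of near-identical copies may be divided between rows. With pseudogene counts added to the parent gene, 42 members were called in wild-type and 27 in alpha-synuclein cells.

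Other genes of the ribosome supply were counted in the same way, beside all genes at 25.8% higher and 26.2% lower in wild-type cells and 22.9% and 24.2% in alpha-synuclein cells. Of 20 further translation genes with TOP mRNAs, 7 were higher and 6 lower with 6-OHDA in wild-type cells, and 5 and 3 in alpha-synuclein cells, with medians of 0.06 and 0.08. In wild-type and alpha-synuclein cells, in that order, EEF1D, an elongation factor exchange subunit, rose by 0.99 and 0.25, the translocation factor EEF2 by 1.05 and 1.03 and TPT1 by 0.61 and 0.60. The initiation factor subunit EIF3F fell by 0.65 and 0.48. Ribosome biogenesis genes were 6 higher and 7 lower of 28 in wild-type cells, and 9 and 4 in alpha-synuclein cells. Among them nucleolar GNL3 rose by 1.06 and 1.37, and EIF6, which keeps the subunits apart, by 1.28 and 0.31. NHP2, of the box H/ACA particles, fell by 0.72 and 0.93. Nucleolin (NCL) fell by 1.21 in wild-type cells and was at -0.09 in alpha-synuclein cells, and fibrillarin (FBL) fell by 0.76 in alpha-synuclein cells and was at -0.25 in wild-type cells.

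Of 12 genes of the RNA polymerase I machinery, which transcribes ribosomal RNA, 1 was higher and 3 lower in wild-type cells, and 2 higher and 4 lower in alpha-synuclein cells. UBTF, its upstream binding factor, fell by 0.97 and 1.06, and RRN3 fell by 0.74 in wild-type cells and was at -0.19 in alpha-synuclein cells. Of 15 regulators of TOP mRNAs and ribosome supply, 8 were higher and 1 lower in wild-type cells, and 5 and 4 in alpha-synuclein cells. In wild-type cells 14 of the 15 had a positive change, with a median of 0.30, and in alpha-synuclein cells 10 of the 15, with a median of 0.14. DDIT4, an inhibitor of mTORC1, rose by 3.04 and 2.19, and LARP1B, a LARP1 relative, by 1.27 and 1.23. ZNF598, a sensor of collided ribosomes, rose by 1.17 and 0.36, and MTOR, the kinase of mTORC1, fell by 0.73 and 0.65. Mitochondrial ribosomal proteins, which build a separate ribosome, were 15 higher and 16 lower of 68 in wild-type cells, and 6 and 22 in alpha-synuclein cells, with medians of 0.14 and -0.15. DAP3 and MRPL18 were higher in both genotypes, by 0.86 and 2.01 in wild-type cells and by 0.68 and 1.56 in alpha-synuclein cells.

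Nuclear genes of the respiratory chain were 3 higher and 15 lower of 30 in wild-type cells, and 4 and 16 in alpha-synuclein cells, UQCR10 among them at -0.92 and -1.05. Mitochondrially encoded mRNAs were 13 lower of 13 in wild-type and 5 lower of 13 in alpha-synuclein cells. Neuronal markers were 2 higher and 10 lower of 12 in wild-type cells, and 1 and 8 in alpha-synuclein cells, MAP2 at -1.98 and -1.24. Progenitor and cell cycle markers were 1 higher and 3 lower of 8 in each genotype. Glial markers were 2 higher and 2 lower of 7, and 3 and 2. Mesenchymal, endothelial and immune markers were 2 higher and 0 lower of 6, and 1 and 1. The 3 ribosomal protein paralogs outside the rule gave 1 lower in each genotype, RPL7L1 at -0.47 in wild-type and RPL26L1 at -0.63 in alpha-synuclein cells. The part of these shifts in the results was not tested.

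Quercetin and rutin were each compared with the same 4 libraries of alpha-synuclein cells with 6-OHDA and no compound, so the 2 comparisons share those libraries. With quercetin, 71 of the 79 members had a positive log2 change, with a median of 0.17 against -0.02 over all genes, and 1 was called, where 2.53% of all genes were, 0.56% higher and 1.97% lower. The called gene was RPL13A, at 197, 188 and 153 CPM with quercetin, against 103.2, 60.7, 129 and 112 CPM without a compound. The groups did not overlap, and the log2 change was 0.81 (SE 0.18, adjusted p = 0.023). The call was lost without the fourth library with 6-OHDA and no compound (adjusted p = 0.051), without the first or second quercetin library (adjusted p = 0.085 and 0.084), and in a fit of the 2 groups only (adjusted p = 0.17). DESeq2 called 6 members. For 5 members all quercetin libraries were above, and for 1 below, or 6.33% and 1.27% (5.36% and 8.13% of all genes).

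With rutin, 75 of the 79 members had a positive log2 change, with a median of 0.28 against -0.01 over all genes. None was called by edgeR, as none of all genes was (0%), and DESeq2 called 12 members. The share of all genes called by DESeq2 is not given here for either compound. An unadjusted p under 0.05 was found for 43 of the 79 members and 1790 of the 16601 genes. For 20 members every rutin library was above every library without a compound and for 0 below, or 25.3% and 0% (4.1% and 4.6% of all genes). RPS27L stood at 98.4, 87.3 and 121 CPM with rutin and at 85.6, 69.6 and 80.5 CPM with quercetin, against 65.5, 67.5, 66.3 and 63.9 CPM without a compound. Every compound library was above every library without one, and the log2 changes were 0.63 (95% interval 0.39 to 0.87, adjusted p = 0.088) with rutin and 0.26 (0.02 to 0.50, adjusted p = 0.26) with quercetin. RPLP0 stood at 601, 735 and 499 CPM with rutin and at 484, 440.5 and 494 CPM with quercetin, against 451, 338, 471 and 459.7 CPM without a compound.

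Marker lists moved in the same comparisons. All 8 progenitor and cell cycle markers had a positive log2 change with each compound, with a median of 0.67 with rutin (4 with an unadjusted p under 0.05) and 0.35 with quercetin (1). Their summed level was 230 to 347 CPM with rutin and 225 to 282 CPM with quercetin, against 174 to 245 CPM without a compound. Of 7 glial markers 0 had a positive change with rutin and 1 with quercetin, with medians of -0.41 and -0.12, and their sum was 48.6 to 51.6 CPM with rutin and 54.7 to 57.1 CPM with quercetin, against 55.2 to 78.2 CPM without a compound. None of these markers was called, and their part in the results was not tested.

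**Figure D5:**
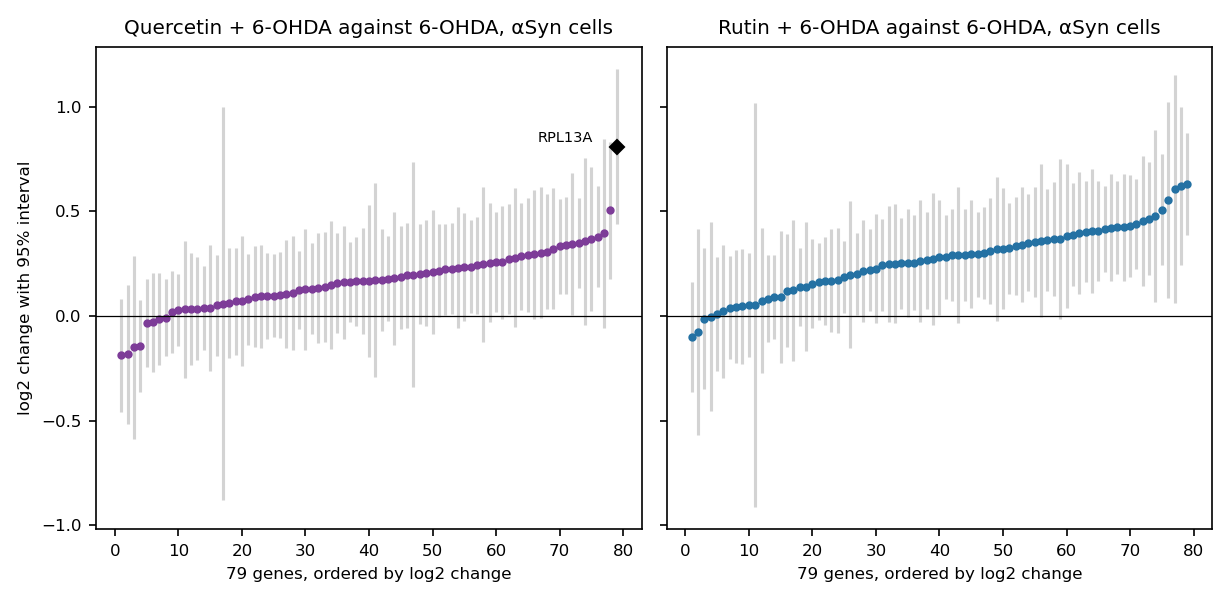
Log2 change of each of the 79 genes (vertical axis, grey lines 95% intervals) with quercetin and with rutin, each against alpha-synuclein cells with 6-OHDA and no compound, in increasing order. Positive changes number 71 with quercetin and 75 with rutin, and RPL13A (diamond) was the 1 called gene.

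Quercetin and rutin, which differ by the sugar chain on rutin, were compared directly as 1 pair. The labels state neither dose nor time, and whether these match is unknown. No member was called by edgeR, where 0.00602% of all genes were, and DESeq2 called 0 members. An unadjusted p under 0.05 was found for 9 of the 79 members and 1481 of the 16601 genes. The log2 difference of quercetin minus rutin had a median of -0.12 over the members and -0.03 over all genes, and 56 of the 79 were negative. The largest in size was 0.47, and the median half-width of the 95% intervals was 0.27. For RPS27L the difference was -0.37 (95% interval -0.63 to -0.12, adjusted p = 0.34), for RPLP0 -0.37 (-0.66 to -0.09, adjusted p = 0.39), for RPL7 -0.39 (-0.62 to -0.16, adjusted p = 0.27) and for RPL13A 0.19 (-0.21 to 0.59, adjusted p = 0.84). For 2 members all quercetin libraries were above all rutin libraries and for 19 below, or 2.53% and 24.1% (9.04% and 12.7% of all genes). Spearman's rho between coding GC and the difference was 0.47 over the 79 members and 0.25 over other coding genes.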

How the data were processed

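The deposited table holds estimated counts per Ensembl gene for 22 libraries, not normalised. Per the labels' protocols, polyadenylated RNA was made into MGIEasy libraries, and per the submitters' processing notes Trimmomatic 0.38 and kallisto 0.46.2 were used with GRCh38 and hg38; the labels state no annotation, strand or gene summing. Kallisto splits reads between near-identical genes, so levels of members with pseudogenes are uncertain. Counts were rounded, filtered by filterByExpr (minimum count 10), scaled by TMM and tested in R 4.3.3 with edgeR 4.0.16 (glmQLFit, glmQLFTest) on the 6 group means of all libraries. DESeq2 1.42.0 served as an alternative. Each SE was the log2 change over the square root of F. Positions, coding lengths and GC content came from GENCODE 29 (99.8% of IDs matched) and start windows from RefSeq.

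Members, gene lists and tests were chosen with earlier results of these data known. Named were fixed members with known roles or paralogs, and in each comparison the 4 called members with the largest change each way at 5 CPM or more in a group; from each other list came the 3 called genes with the smallest adjusted p. No label ties libraries to separate cultures, and the p-values then reflect spread among the libraries alone, possibly technical. Total-count scaling and GC adjustment were chosen after seeing the data. Replicates differed beyond sampling noise (chi-square per degree of freedom 2.87 to 26.2). Floors cover counting error only. The overexpressed gene and some members are not reported here by name. On simulated data with known changes the test was checked first.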

Additional observations from a re-analysis of the deposited data

Results flagged for a closer look

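Of 144 sets of 4 libraries examined (34 named members, the share of counts and the subunit ratio, in 4 groups), 6 had 1 library far from the other 3 by Dixon's 95% criterion, and chance flags about 1 in 20 such sets. RPLP0 stood at 338 CPM in the second alpha-synuclein library with 6-OHDA (others 451 to 471 CPM) and at 362 CPM in the second untreated wild-type library (others 314 to 319.9 CPM). RPS4X stood at 193 CPM in the fourth wild-type library with 6-OHDA, and at 168 to 169.5 CPM in the others. In untreated wild-type cells RPS27 stood at 165 CPM and RPL13A at 117 CPM in the third library (others 139 to 140.3 and 92.8 to 95.5 CPM), and RPL36 at 125 CPM in the second (others 90.8 to 94.8 CPM).

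The change with 6-OHDA differed between the genotypes for 21 members by the test of the interaction. Among named members the log2 difference between alpha-synuclein and wild-type cells was -1.30 for RPL3, -0.96 for RPL13A, -0.83 for RPL13, -0.80 for RPL18, -0.80 for RPL36, -0.78 for RPS2, -0.76 for RPL10A, -0.70 for RPL12, -0.67 for RPLP1, -0.66 for RPS15 and -0.59 for RPS4X. It was 0.51 for RPL7 and 1.30 for RPS25. Lane and group cannot be told apart in this test, and coding GC moved with it (rho -0.69 over the members).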

How the results depend on the processing

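The count of called members stayed within 1.5 times of the reported one with DESeq2 size factors, with TMM computed without ribosomal protein and mitochondrial genes, without the low-count filter and with pseudogene counts added. Other settings moved it. For 6-OHDA in alpha-synuclein cells it was 28 as reported, 18 without the 2 libraries with 4 barcode numbers and 53 with total counts as library size. For the interaction it was 21 as reported and 9 after GC adjustment. For quercetin it was 1 as reported, 6 with DESeq2's Wald test, 0 in a fit of only the groups compared, 0 with a replicate block and 4 with total counts as library size. For rutin it was 0 as reported and 12 with DESeq2's Wald test. The cause of these shifts was not tested.

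Replicate numbers did not pair the samples: deviations of same-numbered libraries correlated at -0.14 to 0.06. With the replicate block the counts were 42 for 6-OHDA in wild-type cells, 26 for 6-OHDA in alpha-synuclein cells, 0 for untreated genotypes, 29 for genotypes under 6-OHDA, 21 for the interaction, 0 for quercetin, 0 for rutin and 0 for quercetin against rutin.

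Leaving out each library in turn gave 39 to 43 calls for 6-OHDA in wild-type cells, 24 to 34 for 6-OHDA in alpha-synuclein cells, 0 to 1 for untreated genotypes, 26 to 32 for genotypes under 6-OHDA, 17 to 27 for the interaction, 0 to 3 for quercetin, 0 to 3 for rutin and 0 to 0 for quercetin against rutin. Of the called values (all comparisons), 95 kept their call in all of these fits and 27 lost it in at least 1; under the other planned settings 97 kept it and 25 lost it, and under total counts and GC adjustment 87 and 35.

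Of 212 values examined that were not called, 39 passed the threshold in the same direction in at least 1 alternative. The sign differed in at least 1 alternative for 76 of them. With total counts as library size RPS15 in alpha-synuclein cells turned to 0.024, RPS6 there to 0.27, RPL14 there to 0.20 and RPL5 in wild-type cells to 0.23. The share of counts moved by less than 1 SD when pseudogene rows were added or when the filtered non-mitochondrial total was used. With TMM scaling, the summed level in alpha-synuclein cells overlapped between 6-OHDA without a compound and untreated (19112 to 25398 and 20912 to 23925 CPM). Shallow libraries limit low genes most: 3 counts equal up to 1.49 CPM.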
